A study of Homo sapiens with 12 samples.

Results

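The regions described here carried an H3K4me2 peak with vehicle and with all-trans retinoic acid, and no peak in either of the lists made with the inhibitor Corin. Merging every overlap or contact between peaks of the 4 deposited lists gave 84577 regions. Of these, 46057 held both a DMSO and an ATRA peak, and 763 of the 46057 held no Corin and no ATRA+Corin peak (1.66%, 95% Wilson interval 1.54 to 1.78%). The regions were selected on the presence of deposited peaks alone, so their number and their strength in the DMSO and ATRA lists are descriptions, with no test. Wilson intervals here cover counting error only, and neighbouring regions are not independent. The lists came from U-937, an established human leukaemia line of the monocytic lineage, kept for 24 h in DMSO, in 0.1 µM ATRA, in 0.1 µM Corin or in both agents at 0.1 µM each. Each treatment had 2 H3K4me2 libraries and 1 input library, and 1 pooled peak list. The lists used here hold no value per replicate, so no difference between treatments could be set against the spread between replicates, and a single cell line was used. As a check of the labelled lineage, DMSO peaks covered the start sites of 16 of 24 monocyte and macrophage genes, 9 of 11 azurophil granule genes and 6 of 18 T and B lymphocyte markers. Coverage did not follow lineage alone. In the other gene lists used below it ran from 6 of 22 ribosomal protein genes to 13 of 15 genes of CoREST, p300 and partners.

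H3K4me2 is a methylation mark on histone H3 found at promoters and enhancers, often as blocks on both sides of a nucleosome-poor start site. LSD1, the demethylase of the CoREST complex, removes methyl groups from H3K4, and the same complex holds the deacetylases HDAC1 and HDAC2. Corin is a synthetic inhibitor of both activities. ATRA is the ligand of the retinoic acid receptors and drives differentiation of some myeloid leukaemia cells.

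A few sequences show what lay in and beside these regions. All are read from GRCh38, and capitals mark matches on either strand to 10 short motifs. These were the GC box GGGCGG, the site TGANTCA known from AP-1 factors, the site TTGCNNAA known from C/EBP factors, and GAGGAAGT, which PU.1 is known to bind. The others were TGTGGT for RUNX factors, the nuclear receptor core site AGGTCA, the E-box CACGTG, the ETS site CCGGAAG, the CCAAT box searched as ATTGG, and AGATAA for GATA factors. A match describes letters and not a bound site. The first is the RefSeq promoter of SLC18B1, a vesicular amine transporter gene whose start site held the strongest of the 763 regions. It is the stretch chr6:132798638-132798887 on the minus strand, and it lies inside the region. The USP5 promoter, chr12:6851900-6852147 on the plus strand, overlaps the end of the upstream Corin-list peaks and the first bases of the region at the start site of this deubiquitinase gene. The first marked GC box and the first marked CCAAT box lie under the upstream Corin-list peaks. The other marked motifs lie between those peaks and the region. Windows of 300 bp around the DMSO summit follow for the regions in an intron of MCM5 (chr22:35407340-35407639) and downstream of INSM1 (chr20:20393666-20393965), both on the plus strand. The INSM1 window starts before its region, and the CACGTG marked at its first base lies outside the region.
SLC18B1: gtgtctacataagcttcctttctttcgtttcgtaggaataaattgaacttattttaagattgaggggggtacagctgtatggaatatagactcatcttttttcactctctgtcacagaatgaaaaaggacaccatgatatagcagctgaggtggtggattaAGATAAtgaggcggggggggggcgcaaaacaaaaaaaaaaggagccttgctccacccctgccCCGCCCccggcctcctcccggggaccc
USP5: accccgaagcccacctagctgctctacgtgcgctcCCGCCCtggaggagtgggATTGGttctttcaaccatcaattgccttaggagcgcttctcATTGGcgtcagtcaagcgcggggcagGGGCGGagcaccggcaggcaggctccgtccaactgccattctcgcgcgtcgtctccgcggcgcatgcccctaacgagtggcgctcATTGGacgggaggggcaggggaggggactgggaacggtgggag
MCM5: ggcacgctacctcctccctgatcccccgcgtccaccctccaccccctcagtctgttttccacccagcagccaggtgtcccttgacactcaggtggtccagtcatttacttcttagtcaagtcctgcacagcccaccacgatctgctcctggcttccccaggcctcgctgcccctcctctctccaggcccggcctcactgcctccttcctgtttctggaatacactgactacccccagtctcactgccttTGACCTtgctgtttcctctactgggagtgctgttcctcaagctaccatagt
INSM1: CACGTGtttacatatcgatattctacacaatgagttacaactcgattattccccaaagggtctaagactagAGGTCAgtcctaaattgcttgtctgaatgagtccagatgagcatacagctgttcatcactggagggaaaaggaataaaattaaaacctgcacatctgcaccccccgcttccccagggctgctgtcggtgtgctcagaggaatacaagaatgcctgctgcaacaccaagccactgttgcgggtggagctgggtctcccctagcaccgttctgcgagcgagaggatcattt
The SLC18B1 stretch holds 1 GC box and 1 AGATAA, and the USP5 stretch 2 GC boxes and 3 CCAAT boxes. Of 27305 RefSeq promoters of 300 bases, 44.6% hold GGGCGG, 35.7% ATTGG and 10.5% AGATAA.

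Further sequences show the base composition of 2 regions away from start sites, strong among the regions described here, with each CG in capitals. They are 200 bp around the DMSO summits of a region outside genes (chr12:127381046-127381245) and of a region in an intron of BAHCC1 (chr17:81436190-81436389), both on the plus strand.
chr12 region: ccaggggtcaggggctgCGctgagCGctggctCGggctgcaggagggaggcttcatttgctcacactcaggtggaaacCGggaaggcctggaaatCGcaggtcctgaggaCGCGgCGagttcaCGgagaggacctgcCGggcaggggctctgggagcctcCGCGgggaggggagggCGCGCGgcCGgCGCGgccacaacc
BAHCC1 intron: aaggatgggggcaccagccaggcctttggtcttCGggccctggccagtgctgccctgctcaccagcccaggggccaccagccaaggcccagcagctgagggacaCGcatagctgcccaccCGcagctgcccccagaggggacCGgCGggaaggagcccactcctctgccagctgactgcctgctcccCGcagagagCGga
The GC content was alike, at 71.5% and 70.5%, but the chr12 window holds 18 CG and the BAHCC1 window 7.

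Nearly all of the 763 regions were weak. The median fold over input was 3.89 in the DMSO list and 4.18 in the ATRA list, compared with 9.14 and 12.4 over all 46057 regions. The median −log10 q was 3.73 with DMSO and 4.87 with ATRA, compared with 22.0 and 39.4. A fragment count recovered from the deposited fold and p gave a median of 20 H3K4me2 fragments at the DMSO summit, over a background of 3.30, and of 21 at the ATRA summit, over 3.42. Below the median strength of the list lay 738 (96.7%) in the DMSO list and 754 (98.8%) in the ATRA list. The median width was 433 bp, compared with 1717 bp over all 46057, and 466 were at most 500 bp wide. A −log10 q of 5 or more was reached in both lists by 158 regions and in neither by 298. Only 3 of the 763 reached 20 in both lists, as did 23503 of the 46057. Across the regions, −log10 q in the 2 lists had a Spearman rho of 0.277, a description over weak values.

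**Figure D1:**
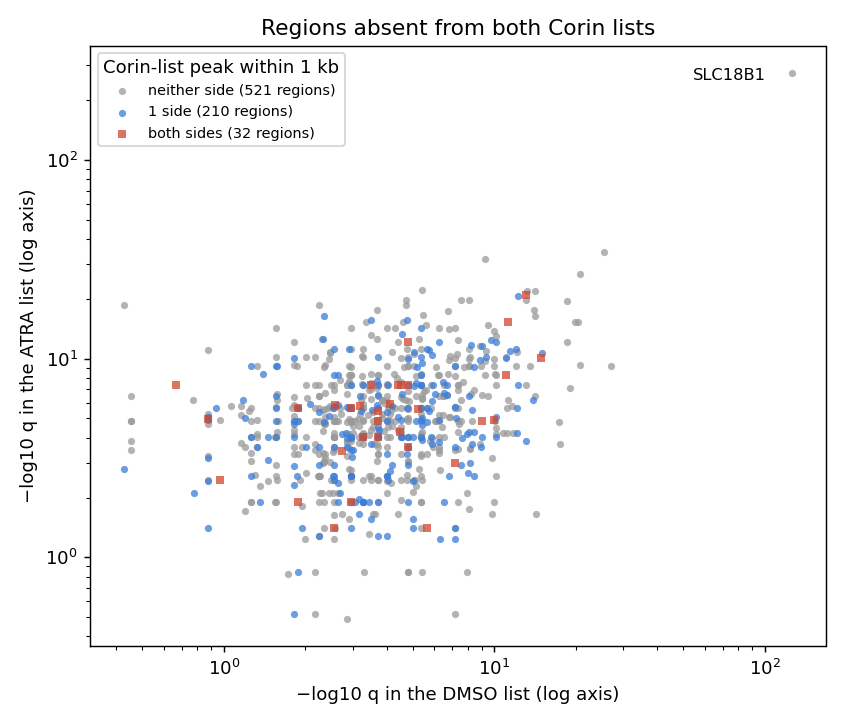
Each point is 1 of the 763 regions, placed by its −log10 q in the DMSO list and in the ATRA list (log axes), with colours and shapes for Corin-list peaks within 1 kb on neither side, 1 side or both sides. The SLC18B1 region stands at 126.5 and 273, while the next highest values are 27.1 with DMSO and 34.2 with ATRA.

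The share of regions absent from both Corin lists was lower where the DMSO peak was stronger. It was 9.23% of the 1214 regions with a DMSO −log10 q under 2, 7.33% from 2 to under 5, 2.74% from 5 to under 10 and 0.653% from 10 to under 20. From 20 to under 50 it was 5 of 10231 regions, and at 50 and over it was 1 of 13759, the SLC18B1 region. Within a class of strength, the intervals of regions near and far from start sites overlapped in every class. By the recovered background, the Corin and ATRA+Corin H3K4me2 libraries were 1.097 and 1.199 times as deep as DMSO, and ATRA was 1.016 times as deep. These ratios stand for depth only if the peak calls used the same fragment length, which was not checked. The lists held 65172 peaks with DMSO, 66385 with ATRA, 73997 with Corin and 83969 with both agents. With each list limited to its strongest 65172 peaks, 1663 regions met the rule (3.63%).

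**Figure D2:**
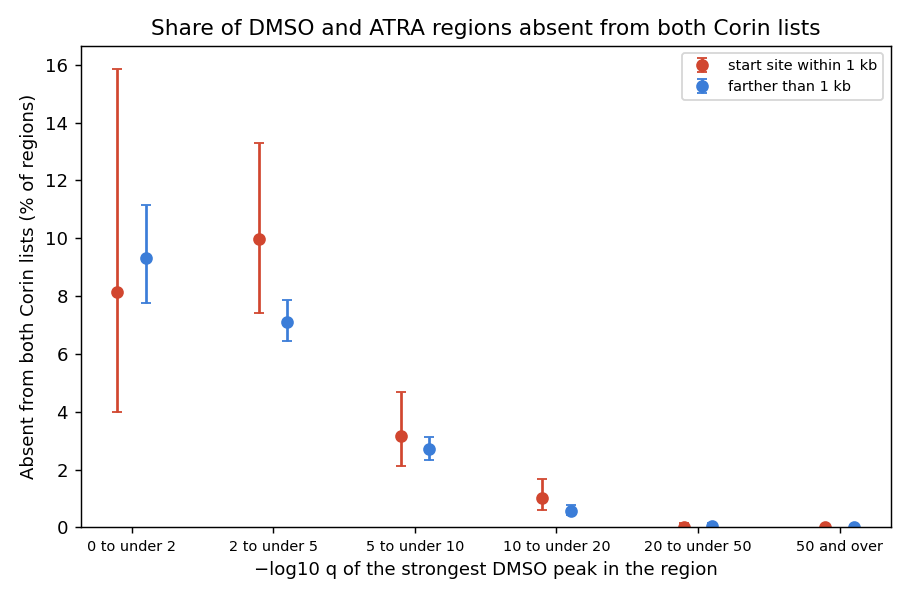
Share of the regions with a DMSO and an ATRA peak that held no peak of either Corin list, by −log10 q of the strongest DMSO peak, for regions with a start site within 1 kb and farther away. Points are shares and bars are 95% Wilson intervals; over all regions it is 9.23% in the weakest class and 1 region of 13759 in the strongest.

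Absence from both Corin lists was less frequent than the opposite pattern. Of 55192 regions with a Corin and an ATRA+Corin peak, 6179 (11.2%) held no DMSO and no ATRA peak. The lists differed in size, however, and both Corin lists held more peaks than the DMSO and ATRA lists. At equal size the share absent from both Corin lists was 3.63%, and the opposite pattern was not counted at equal size. Absence from single lists was more frequent than absence from both: 2422 of the 46057 regions (5.26%) held no Corin peak and 1134 (2.46%) no ATRA+Corin peak. Among the regions absent from the Corin list, 1659 were present with both agents. The 4 lists share no libraries, but each is a single call.

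The strongest region spanned the start site of SLC18B1 (chr6:132797974-132799241, 1268 bp). Its fold was 24.25 with DMSO and 59.3 with ATRA, from 197 and 264 fragments. The nearest peaks of the Corin list lay 13108 bp to the right and 39595 bp to the left, and those of the ATRA+Corin list 13008 and 29603 bp away. Peaks of all 4 lists lay side by side upstream of the start site, and the ATRA+Corin ones spanned -18287 to -13613 bp from it. The Corin peak there had a fold of 14.89 from 90 fragments, and the DMSO peak 17.83 from 93 fragments. Numbers in the deposited peak names run with strength and have gaps. Of the first 10000 numbers, 7 are missing from each Corin list as used here and 5 from the DMSO and the ATRA list. Whether one of those peaks lay at SLC18B1 cannot be told, so the absence of this region from the Corin lists is uncertain.

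Canonical start sites of protein-coding genes, 1 per gene, lay in 12 of the 763 regions: SLC18B1, USP5, NBPF15, WASHC2A, SARDH, CREB1, LILRB4, TCTE1, LARP6, NDRG2, CCER2 and EPB41L2. That was 1.57% of the 763, compared with 20.7% of all 46057 regions. Below a DMSO −log10 q of 10 the share was 1.14%, near the 1.34% of regions in all 4 lists. The USP5 region (chr12:6852134-6852397, spanning the start site and overlapping an exon) had 41 fragments with DMSO and 28 with ATRA, with folds of 7.31 and 6.05. It sat in a gap between broad peaks that all 4 lists shared. The nearest Corin peaks ended 154 bp to its left, with a fold of 25.3, and began 271 bp to its right, with a fold of 16.1. CREB1, the gene of a cAMP-responsive transcription factor, had the same arrangement at chr2:207529925-207530402. Its region had 28 fragments with DMSO and 20 with ATRA, and Corin peaks lay 207 bp to the left and 272 bp to the right. A region 12 bp from the canonical start site of RAP1B, a small GTPase gene, held another annotated start site of this gene and had ATRA+Corin peaks 144 and 322 bp away. At these start sites the Corin lists therefore lacked a small peak between flanking peaks, and did not lack H3K4me2 peaks at the promoter.

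SARDH, the gene of the mitochondrial enzyme sarcosine dehydrogenase, had 3 of the regions within 50 kb of its start site, a number matched only by TMPRSS13. The region at the start site (chr9:133737954-133738528) had folds of 6.44 and 5.54 from 30 and 23 fragments. The intronic one had 20 fragments in each list. The one upstream overlapped an exon of another gene, VAV2, 47820 bp from the SARDH start site. It had 34 and 37 fragments, with a Corin-list peak 1432 bp away. Within 50 kb of this start site the DMSO and ATRA lists each had 3 regions and the Corin lists 0. The nearest Corin-list peaks, 2 with Corin and 1 with both agents, began about 50 kb upstream, in a region with DMSO and ATRA peaks. The folds there were 10.71 with DMSO, 3.19 with ATRA, 4.35 and 3.93 with Corin and 3.01 with both agents. The fragments were 51 with DMSO, 31 with ATRA, 19 and 17 with Corin and 14 with both agents. The order of the ATRA and Corin peaks thus depended on the measure. At LILRB4, which encodes an inhibitory receptor of monocytes, the region spanned the start site with 25 and 18 fragments. The nearest Corin-list peaks were 18150 and 27980 bp away.

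**Figure D3:**
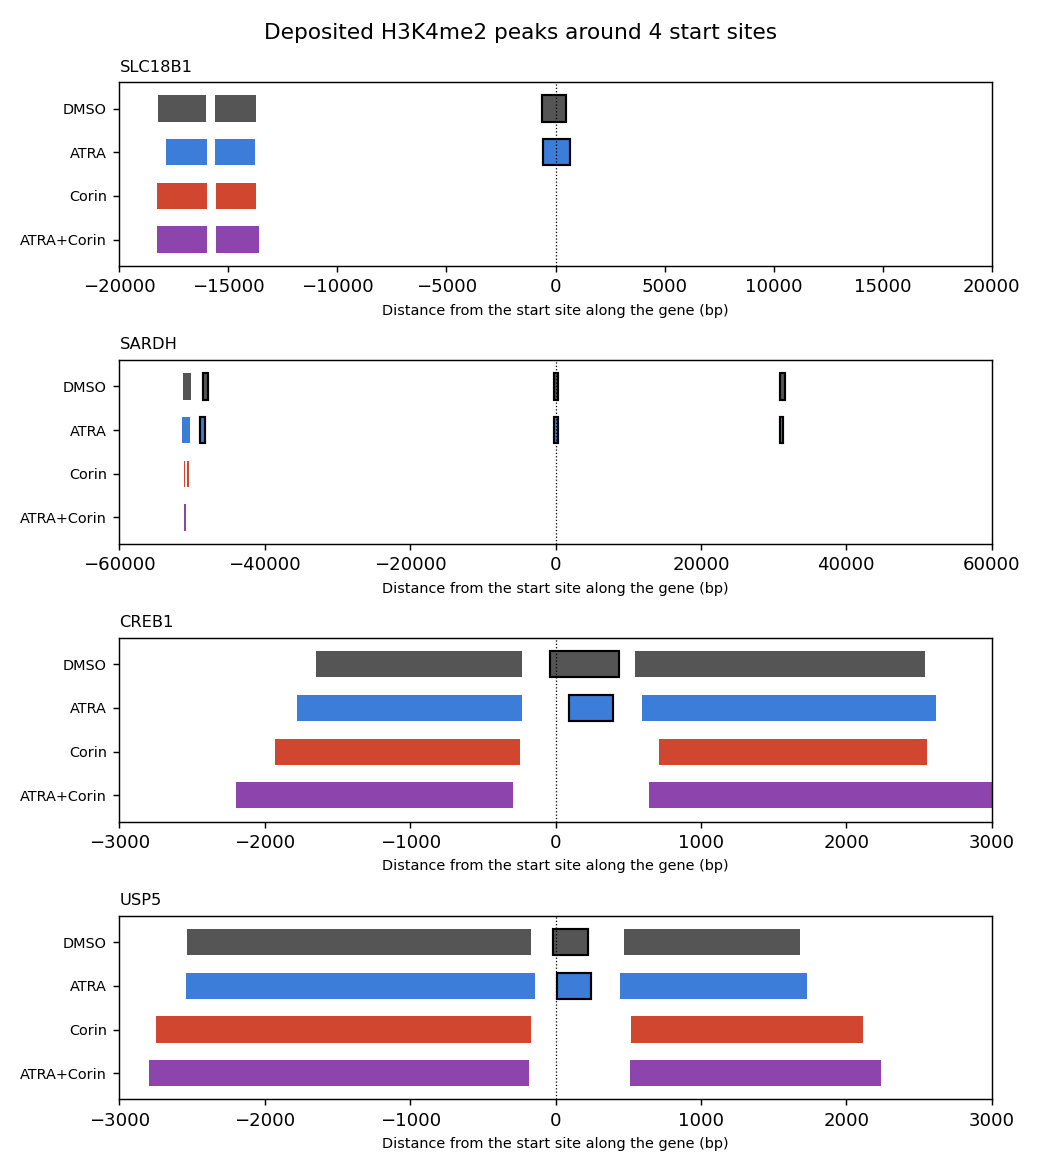
Deposited peaks of the 4 lists (rows) by distance from the start site along the gene in bp, for SLC18B1, SARDH, CREB1 and USP5; outlined bars belong to the 763 regions. At CREB1 and USP5 the outlined peaks fill a gap between peaks present in all 4 lists, whereas at SLC18B1 the nearest Corin-list peak is 13008 bp away.

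Corin-list peaks were common beside the 763 regions. At least 1 lay within 1 kb of 242 regions (31.7%, interval 28.5 to 35.1%), on both sides of 32, and on neither side of 521. Of the regions in all 4 lists with a DMSO −log10 q under 10, 36.0% had another Corin-list peak within 1 kb. The median distance from the 763 regions to a Corin-list peak was 3075 bp, compared with 2500 bp in that set. None lay within 50 kb of 58 of the 763 (7.60%, interval 5.93 to 9.70%), compared with 498 of 11294 (4.41%, 4.046 to 4.804%). Of the 32 regions between 2 such peaks, 13 (40.6%, interval 25.5 to 57.7%) had a start site within 1 kb, as did 51 of the 521 (9.79%, 7.52 to 12.6%). Their median width was 289 bp, compared with 457 bp. At the limit of the rule, the smallest gaps to a Corin-list peak were 4, 8 and 12 bp, and 28 regions had such a peak within 100 bp. Among the 45294 regions that failed the rule, the smallest overlaps of a Corin-list peak with a DMSO or ATRA peak were 18 and 19 bp.

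**Figure D4:**
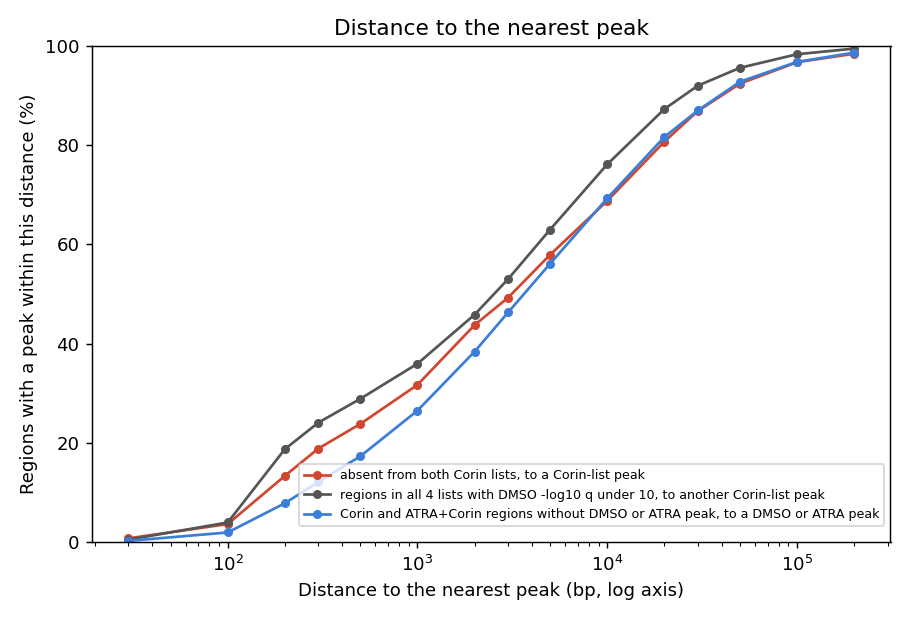
Cumulative share of regions (%) with a peak within a given distance (bp, log axis). The curve of the 763 regions to a Corin-list peak reaches 31.7% at 1 kb; the regions in all 4 lists with a DMSO −log10 q under 10 reach 36.0%, and Corin and ATRA+Corin regions without a DMSO or ATRA peak reach 26.5% for a DMSO or ATRA peak.

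Most of the 763 regions lay away from start sites. A start site of a protein-coding or lncRNA gene was within 1 kb of 87 (11.4%, interval 9.34 to 13.9%), 439 were in the rest of gene bodies, and 237 were intergenic. Of the regions in all 4 lists, 37.9% were within 1 kb of a start site. This difference was absent at low strength: below a DMSO −log10 q of 10 the shares were 9.96% (7.96 to 12.4%) and 8.78% (8.28 to 9.32%). The opposite pattern, present in both Corin lists only, had 5.39% (4.85 to 5.98%) near start sites. With −log10 q of 5 or more in both lists the share was 18.4%. For canonical protein-coding start sites alone it was 5.11% of the 763, compared with 28.8% of all 46057 regions. Below a DMSO −log10 q of 10 the canonical shares were 3.84% and, for regions in all 4 lists, 4.02%. By chromosome, the share of regions absent from both Corin lists was highest on chromosome 21, at 3.33% (2.12 to 5.20%), and lowest on chromosome 19, at 0.959% (0.634 to 1.45%).

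Regions away from start sites that ranked high in DMSO −log10 q among those absent from both Corin lists included an intron of POU2F2 (chr19:42129213-42130105). This gene encodes a POU-domain transcription factor known from B cells. The region had 49 fragments with DMSO and 40 with ATRA, and folds of 9.45 and 7.09. A Corin peak with a fold of 34.7 lay 2080 bp from it. An intron of PRKCB, a protein kinase C gene (chr16:24026881-24027630), had 43 and 24 fragments, with the nearest Corin-list peak 11648 bp away. The BAHCC1 intron (chr17:81435979-81436927) had 53 and 34 fragments, and the chr12 region outside genes (chr12:127381008-127381464) had 46 and 48. The nearest Corin-list peak was 110134 bp from the chr12 region.

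GC content around the DMSO summit depended on what the regions were compared with. The median over 300 bp was 53.0%, near the 53.3% of regions in all 4 lists. Among regions with a DMSO −log10 q under 10 it was 52.7%, compared with 47.3%, and the same held farther than 1 kb from start sites (52.3% and 47.3%). From 2 to under 5, 23.02% of regions with a GC content of 60% and over were absent from both Corin lists, compared with 2.62% under 40%. Region width also moved with this difference. Within widths of up to 300 bp and of 300 to 500 bp, at a DMSO −log10 q under 10, the medians were 53.7% and 51.3%, compared with 52.0% and 50.0%. In wider regions it was larger, with 52.5% and 48.7% from 500 to 800 bp and 53.7% and 47.0% from 800 to 1500 bp. Without the limit on strength, regions of 300 to 500 bp had 51.7% and 51.8%, so the difference was lost at that width. Other patterns with a DMSO peak, short of all 4 lists, had medians from 49.3% (DMSO, Corin and ATRA+Corin peaks) to 52.7% (a DMSO peak alone). Regions with DMSO and Corin peaks had 51.3%, and those with DMSO and ATRA+Corin peaks 49.7%. Regions with Corin and ATRA+Corin peaks alone have no DMSO summit, and around their Corin summit the median was 46.0%. The parts of width, strength and GC content in absence from the Corin lists were not tested.

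**Figure D5:**
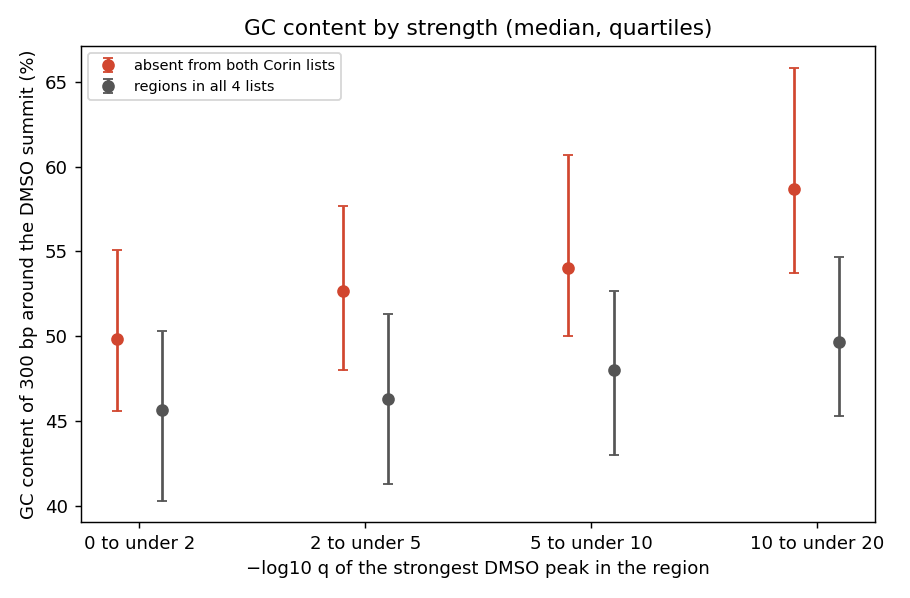
Median GC content (points) and quartiles (bars) of 300 bp around the DMSO summit, by −log10 q of the DMSO peak, for the 763 regions and for regions in all 4 lists. The medians from 2 to under 5 are 52.7% and 46.3%; region width is not held equal here.

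Some motif shares differed in the direction of base composition. Farther than 1 kb from start sites and below a DMSO −log10 q of 10, GGGCGG was found in 12.6% of the 633 regions and in 6.53% of 10302 regions in all 4 lists. The AT-richer ATTGG was found in 24.0% and 32.9%, TTGCNNAA in 12.5% and 18.4%, and AGATAA in 10.3% and 14.8%. The nuclear receptor core site AGGTCA was found in 21.5% and 24.0%, with overlapping intervals. GAGGAAGT and TGTGGT also had overlapping intervals, as did CACGTG (5.37% and 3.72%) and the GC-rich CCGGAAG (1.42% and 1.51%). TGANTCA was found in 8.69% and 12.1%. Width moved with these shares too. Within widths of 300 to 500 bp, at a DMSO −log10 q under 10 and any distance from start sites, GGGCGG was found in 13.7% and 13.6%, ATTGG in 26.4% and 28.6%, TTGCNNAA in 11.7% and 15.2%, and AGATAA, in the other direction, in 13.0% and 10.8%. TGANTCA also went in the other direction there, with 10.37% and 8.82%. From 500 to 800 bp the differences of GGGCGG and ATTGG were larger, with GGGCGG in 20.3% and 10.95% and ATTGG in 22.9% and 30.4%. From 800 to 1500 bp ATTGG was found in 18.8% and 33.7%, but GGGCGG in 8.70% and 6.58%. Up to 300 bp GGGCGG was found in 19.15% and 16.33%, and ATTGG in 22.7% and 27.55%. These shares were not compared at equal GC content.

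Some of the strongest of these regions held repeated sequence. Words of 75 bases, the read length, that also occur elsewhere in the genome were found in 82 of the 763 regions (10.75%, interval 8.74 to 13.1%). Over all 46057 regions the share was 7.135%. Below a DMSO −log10 q of 10 it was 9.96% (7.96 to 12.4%), compared with 8.75% (8.24 to 9.28%) of regions in all 4 lists, with overlapping intervals. Among the 25 with a −log10 q of 10 or more in both lists, 11 held such words (interval 26.7 to 62.9%), compared with 6.44% of 31048 regions in all 4 lists. Among the 10 regions with the highest ATRA −log10 q 6 held them, and among the 10 with the highest DMSO −log10 q 2 did. Narrow regions held such words more often in both sets: among those up to 300 bp wide, 36 of 157 here and 123 of 199 in all 4 lists did. The part of width was not tested. The 25 included the region 6 bp from the start site of NOTCH2NLA, a gene of a duplicated family, with 54 and 57 fragments and 43.4% of its words found elsewhere. The NBPF15 region, outside the 25, had 29 and 55 fragments and 30.97% of such words. No word of the SLC18B1 region occurred elsewhere (0%). Signal in the regions with repeated words is uncertain, because reads there can belong to another copy.

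Genes of the lists chosen for this tissue and these agents were also examined within 50 kb of their start sites, where neighbouring genes can share a region. Over all 19959 protein-coding genes, 829 had one (4.15%). Of 23 retinoid signalling genes 1 had one (CRABP2), as did 1 of 24 monocyte and macrophage genes (TLR2) and 1 of 24 myeloid transcription factor genes. Of 15 genes of CoREST, p300 and partners, INSM1 had one, and of 16 H3K4 methylation genes, ASH2L and MEN1. HOXA9 and HOXA10, among 18 leukaemia stem and progenitor genes, shared 1 region. CCND2 and MCM5 stood for 27 cell cycle genes, RPL10 and RPL23 for 22 ribosomal protein genes, and 3 of 21 mitochondrial genes had one. None of 11 azurophil granule, 21 interferon-stimulated or 18 lymphocyte genes did. The Wilson interval held the background of 4.15% for every list but the mitochondrial one (14.3%, interval 4.98 to 34.6%), whose 3 genes were COX4I1, IDH2 and NDUFV1. The regions near COX4I1 and IDH2 lay 48050 and 40919 bp from the start sites, close to the limit of 50 kb.

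Where such genes had a region, it was weak beside the median −log10 q of 22.0 with DMSO and 39.4 with ATRA over all 46057 regions. The highest values were 8.29 with DMSO, near INSM1, and 12.53 with ATRA, near ASH2L. The RPL10 region had 25 fragments in each list, and 69.5% of its words were found elsewhere. The HOXA9 region, shared with the neighbouring HOXA10, overlapped an exon and had 15 and 24 fragments, with a Corin-list peak 265 bp away. TLR2, a receptor for bacterial lipoproteins, had 2 regions with 13 to 18 fragments. The MCM5 region, in an intron of this replication helicase gene, had 18 and 21 fragments. INSM1 encodes a zinc finger factor that recruits LSD1, and its region, in an intron of RALGAPA2, had 27 and 20 fragments.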

How the data were processed

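H3K4me2 ChIP-seq was done in U-937 cells, and 1 pooled peak list per treatment was analysed. The submitters' processing notes name Trimmomatic, Bowtie2, Picard, MACS2 and hg38; versions and thresholds are not given in the sources used here. The deposited score is the −log10 p multiplied by 10, without its decimals, and never exceeds 1000. The deposited fold is a ratio over input at the summit, with a pseudocount of 1. The −log10 p and −log10 q were deposited by the authors, and the summit offset is another deposited value.

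Peaks in contact were merged, and the strongest peak of each list described a region. Fold and −log10 p were solved for whole fragments, a scaling to input and a background; 137 DMSO, 1561 ATRA, 7 Corin and 182 ATRA+Corin peaks, all very strong, were not solved. Merging and solving were tested on simulated data. Start sites came from GENCODE release 44. The named regions are the 10 strongest with DMSO and with ATRA, those with a canonical start site, genes with the most regions, and genes of 12 lists; not all are described, and 1 region is not reported here. RAP1B falls outside this rule and was chosen after its values were seen. Regions and lists were chosen with earlier results of these data known. Shares have 95% Wilson intervals. No test was run, since each treatment has 1 list. Python 3.11.15, pandas 2.3.3, NumPy 2.4.6 and SciPy 1.17.1 were used.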

Additional observations from a re-analysis of the deposited data

How the results depend on the processing

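The number of regions absent from both Corin lists depended on how absence was judged. Requiring a −log10 q of 5 in the DMSO and ATRA lists only left 158 regions (0.412%), limiting each list to the same number of peaks gave 1663 (3.63%), and counting single DMSO peaks with a reciprocal overlap of 50% gave 6084 (14.6%). Merging peaks within 1 kb gave 526 regions (1.35%). A −log10 q of 5 in every list gave 651 (1.70%) and single DMSO peaks with any overlap 999 (1.70%). The share near a start site was 17.0% within 2.5 kb, 18.4% for regions with a −log10 q of 5 in both lists and 5.11% for canonical protein-coding start sites. The share with a Corin-list peak nearby was 46.8% within 2.5 kb. The share with a CpG observed to expected ratio of at least 0.6 was 10.4% over 300 bp and 8.26% over 500 bp. Over 300 bp it was 22.1% of all 46057 regions. Below a DMSO −log10 q of 10 it was 8.96%, compared with 4.24% of regions in all 4 lists. At that strength it was 18.4% and 14.3% in widths up to 300 bp, but 8.03% and 9.31% from 300 to 500 bp.

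The difference in median GC content from regions in all 4 lists, 5.33 percentage points below a DMSO −log10 q of 10, was compared within widths after the data were seen. It was 1.67, 1.33, 3.83 and 6.67 points in widths of up to 300, 300 to 500, 500 to 800 and 800 to 1500 bp, and 0, -0.167, 2.17 and 3.5 points in the same widths at any strength. No paired analysis was possible because the lists are pooled over replicates, and leaving out a replicate could not be run for the same reason. The signal below the peak threshold in the Corin libraries was not analysed here.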
